A study of Homo sapiens with 22 samples.

Results

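CD36 and 9 other genes of fatty acid handling were followed across the 5 treatment groups of an H2110 xenograft study. The genes, 10 of the 58735 in the count table, were taken by symbol: CD36, SLC27A2, FABP4, FABP5, LPL, ANGPTL4, ACSL1, CPT1A, PLIN2 and PPARG. CD36 was chosen by its read counts in these same tumours, where its level differed between groups, so its values are a description with no test. The other 9 genes were added as members of the same pathway, and their tests come from a fit across all genes.

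H2110 is an established human line of lung adenocarcinoma, and its cells were grown as tumours to roughly 300 mm³ before dosing by mouth for 3 days. The title of the study names RIT1, a GTPase of the RAS family, as a driver and target in this cancer. Of the 22 tumours 6 received Vehicle and 4 each drug. RMC-7977, an inhibitor of active RAS, was given at 10 mg/kg, and RMC-4550, an inhibitor of the phosphatase SHP2, at 30 mg/kg. Trametinib at 0.3 mg/kg and cobimetinib at 3 mg/kg are inhibitors of the MEK kinases. Every tumour came from this 1 line, labelled WT, so the values hold for it alone. Which host was used, and whether its reads were removed, is not given in the sources used here. Nothing says that replicates came from separate animals, so the p-values cover only the spread among these samples, and that spread may be technical. Doses differ between drugs, and differences between drugs hold at these doses.

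Long-chain fatty acids enter cells partly through CD36, a scavenger receptor of the plasma membrane, and partly through the SLC27 transport proteins. Inside the cell they are bound by FABP proteins and joined to coenzyme A by enzymes such as ACSL1. They are then oxidised in mitochondria, where CPT1A controls entry, or stored as triglyceride in droplets coated by PLIN2. PPAR nuclear receptors bind fatty acids and switch on many of these genes, CD36 among them in several tissues, through DNA elements built from the hexamer AGGTCA.

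Total counts per library ran from 7761987 to 17265754. DUSP6, a feedback target of ERK, was 18.5 ± 6.59 CPM (read counts scaled to a fixed library total, SD, n = 6) under Vehicle. Its means were 5.81 CPM under cobimetinib, 2.55 under trametinib, 1.60 under RMC-4550 and 1.42 under RMC-7977, and every drug tumour lay below every Vehicle tumour. The lower level of DUSP6 passed edgeR's quasi-likelihood test at an adjusted p under 0.05 for RMC-7977 (adjusted p = 0.00099) and RMC-4550 (adjusted p = 0.0191). It missed the threshold for trametinib (log2 difference -2.80, adjusted p = 0.0663) and cobimetinib (log2 difference -1.67, adjusted p = 0.912). For trametinib it passed when any 1 trametinib tumour was left out (adjusted p 0.0121 to 0.0245) and with DESeq2 (adjusted p = 2.4e-06). The trametinib difference missed the threshold with only the 2 groups compared (adjusted p = 0.444) and with the replicate number as a block (-2.39, adjusted p = 0.978). With RLE or library-size scaling it also missed (adjusted p = 0.0745 and 0.0681). With the replicate number as a block DUSP6 missed the threshold for RMC-4550 (log2 difference -3.08, adjusted p = 0.403), where 0 of all genes then passed. Replicate numbers 5, 6 and 7 occur only under Vehicle, so in that fit only Vehicle replicates 1, 2 and 3 inform the difference. The RMC-4550 call for DUSP6 was also lost without Vehicle replicate 5, RMC-4550 replicate 1 or RMC-4550 replicate 3 (adjusted p 0.0710 to 0.143). The epithelial genes EPCAM, KRT7, KRT8, KRT18 and KRT19 were high, while the lung markers NKX2-1, NAPSA and SFTPB had medians of 2.88, 1.14 and 1.06 CPM. Trametinib replicate 4 stood apart, with 25.0% of its counts in ribosomal protein genes and only 1.99% of its detected genes at 1 or 2 counts. RMC-7977 replicate 3 had 5.02% of such genes, and Vehicle replicate 1 and RMC-4550 replicate 1 correlated less than the remaining libraries with the other tumours. These 4 libraries are named below for some of the values that they change. Without all 4, DUSP6 passed the quasi-likelihood test for trametinib (adjusted p = 0.00245) and cobimetinib (adjusted p = 0.0344).

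CD36 (ENSG00000135218, chromosome 7, 80369575 to 80679277, plus strand, hg38) was higher under RMC-7977 and RMC-4550 than under Vehicle, and close to Vehicle under the MEK inhibitors. RefSeq (GRCh38.p14) gives it 6 start sites with a 250-base window, and the 1 window that no exon overlaps, chr7:80638266-80638515 on the plus strand, is shown because CD36 carries the widest difference among the 7 members with enough counts to be tested. It has a GC content of 36% and holds no AGGTCA on either strand.
CD36 upstream window: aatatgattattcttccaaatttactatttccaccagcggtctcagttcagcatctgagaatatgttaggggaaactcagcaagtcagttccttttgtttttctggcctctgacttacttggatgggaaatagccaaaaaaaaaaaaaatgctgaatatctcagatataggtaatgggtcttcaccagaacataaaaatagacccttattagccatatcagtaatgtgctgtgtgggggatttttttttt

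Under Vehicle the lowest, median and highest CD36 values were 60.5, 77.1 and 138 CPM, with a mean of 91.2 ± 34.2 (SD, n = 6). The 4 RMC-7977 tumours had 202, 195, 216 and 242 CPM, a mean of 214 ± 20.6. The 4 RMC-4550 tumours had 494, 205, 203 and 214 CPM, a mean of 279 ± 143. Every tumour of these groups lay above every Vehicle tumour, and 3 of the RMC-4550 tumours lay within the range of RMC-7977 while replicate 1 had more than any other tumour of the series. Trametinib tumours had 148, 123, 104 and 83.5 CPM, a mean of 115 ± 27.5. Cobimetinib tumours had 75.3, 78.6, 130 and 67.1 CPM, a mean of 87.7 ± 28.4. Both MEK inhibitor groups overlapped Vehicle, with 1 trametinib tumour above it.

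**Figure D1:**
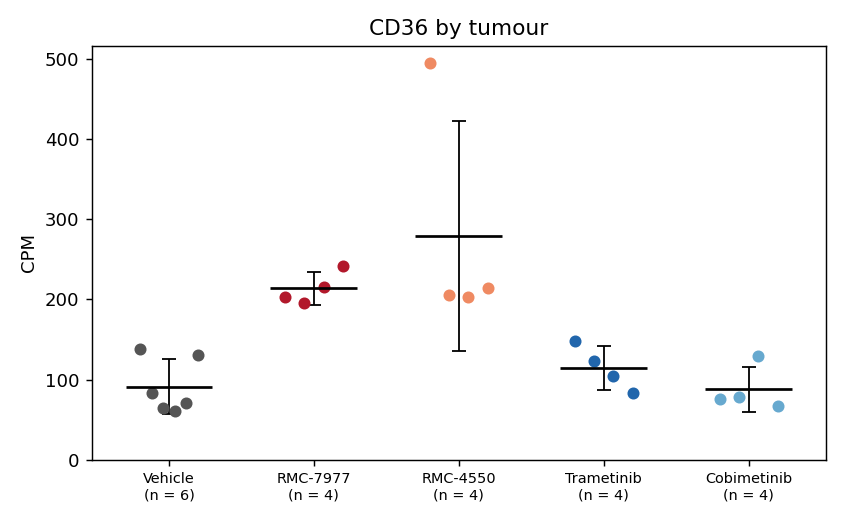
CD36 in CPM for each tumour by treatment group, with points for tumours, lines for means and bars for SD. All 8 tumours on RMC-7977 or RMC-4550 lie at 195 CPM or more, and the 14 others at 148 CPM or less.

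On the log2 scale the difference of CD36 from Vehicle was 1.23 ± 0.28 (SE) for RMC-7977, 1.61 ± 0.28 for RMC-4550, 0.33 ± 0.28 for trametinib and -0.06 ± 0.28 for cobimetinib. These are 2.34-fold and 3.06-fold higher levels under the first pair of drugs. Complete separation above Vehicle was seen for 2.23% of all genes tested under RMC-7977 and for 0.952% under RMC-4550. The 4 comparisons share the same Vehicle tumours. Without RMC-4550 replicate 1 the RMC-4550 difference was 1.17, and across all alternatives the RMC-7977 difference stayed between 1.14 and 1.38.

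Set directly against the MEK inhibitors, CD36 under RMC-7977 differed by 0.89 ± 0.31 from trametinib and by 1.29 ± 0.32 from cobimetinib on the log2 scale. Under RMC-4550 it differed by 1.28 ± 0.32 from trametinib and by 1.67 ± 0.32 from cobimetinib. None of these 4 pairs of groups overlapped, as was also the case for 3.22%, 5.74%, 2.26% and 4.4% of all genes in the same direction. Without RMC-4550 replicate 1 the differences from trametinib and cobimetinib were 0.83 and 1.23. RMC-7977 minus RMC-4550 was -0.38 ± 0.31, and it turned to 0.05 without that library. In order of mean level the groups ran RMC-4550, RMC-7977, trametinib, Vehicle and cobimetinib, and RMC-7977 and trametinib were the only neighbours whose tumours did not overlap.

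The CD36 locus overlaps AC073850.1, GNAT3 and AC004862.1 on the opposite strand, with 418, 29 and 22 counts in the whole series against 42591 for CD36. In bulk tumours fewer cells of a type and less RNA per cell cannot be told apart. Macrophages, endothelium, platelets, adipocytes and muscle also use CD36, so their markers were read beside it. Their part in the CD36 values was not tested. In a xenograft such cells belong to the host, while the reads were handled with the human genome hg38. Counts of human genes may therefore measure host cells poorly. Host reads that align to human genes may also lie in the CD36 counts.

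The summed level of the 12 macrophage markers was 27.0 to 53.4 CPM under Vehicle. It spanned 36.4 to 75.3 CPM in RMC-4550 tumours, 16.2 to 56.2 in RMC-7977 tumours, 31.5 to 65.6 in trametinib tumours and 14.6 to 26.9 in cobimetinib tumours. Much of it came from MRC1, a mannose receptor, at 12.6 ± 14.5 CPM under Vehicle, 22.1 ± 18.5 under RMC-7977 and 42.0 ± 16.3 under RMC-4550. It was 12.8 ± 3.48 CPM under trametinib and 3.81 ± 0.51 under cobimetinib. MRC1 had its higher means in the groups where CD36 was higher. Its log2 difference from Vehicle was 0.81 ± 0.56 for RMC-7977 and 1.73 ± 0.56 for RMC-4550 (quasi-likelihood test, adjusted p = 0.711 and 0.791). Vehicle replicate 2 had 41.4 CPM of MRC1 and the other Vehicle tumours 2.30 to 12.4. RMC-4550 differed from cobimetinib by 3.46 ± 0.69 (adjusted p = 0.0529). The median of the macrophage sum was 55.6 CPM in RMC-4550 tumours, against 31.0 in Vehicle tumours and 26.0 in RMC-7977 tumours. Every RMC-4550 sum (36.4 CPM or more) lay above every cobimetinib sum (26.9 CPM or less). Of the 5 tested genes of the list 4 had negative differences from Vehicle under RMC-7977 (median -0.66) and 3 under RMC-4550 (median -0.30). CD14, CSF1R and ITGAM differed from Vehicle by -0.96, -0.66 and -0.63 on the log2 scale under RMC-7977 and by -0.34, -0.30 and 0.19 under RMC-4550, and none passed. Their levels were low, with medians of 9.28, 2.38 and 0.502 CPM over all tumours. The macrophage genes AIF1 and CD68 were at 0 counts in 21 and 16 of the 22 tumours and reached at most 2 counts. LAPTM5, a lysosomal membrane gene of leukocytes, was 5.40 ± 3.16 CPM under Vehicle and 0.395 ± 0.442 under RMC-7977, and its fall passed the test (log2 change -3.75 ± 0.66, adjusted p = 0.00591). With only the 2 groups compared in the fit it missed the threshold (adjusted p = 0.0509).

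The 10 endothelial markers summed to 40.8 to 198 CPM under Vehicle, with ROBO4 at 0 in all tumours. They spanned 45.5 to 69.3 CPM in RMC-4550 tumours, 19.1 to 77.9 in RMC-7977 tumours, 55.7 to 246 in trametinib tumours and 64.8 to 120 in cobimetinib tumours. PECAM1, an adhesion molecule of endothelium and platelets, fell under RMC-7977 from 30.8 ± 11.02 to 9.42 ± 6.75 CPM (adjusted p = 0.0235). The call for PECAM1 was lost when RMC-7977 replicate 1, 2 or 4 or Vehicle replicate 5 or 7 was left out (adjusted p 0.0533 to 0.121) and with only the 2 groups compared (adjusted p = 0.0743). The endothelial sum had a median of 94.5 CPM in Vehicle tumours, 43.7 in RMC-7977 tumours and 49.8 in RMC-4550 tumours. Much of it came from CLDN5 and PECAM1, with medians of 40.9 and 25.4 CPM over all tumours. Every other marker of the list had a median of at most 1.14 CPM. The sum therefore says little about endothelium beyond CLDN5 and PECAM1. The 6 platelet markers summed to 7.22 to 26.6 CPM under Vehicle, 9.03 to 15.4 in RMC-4550 tumours and 12.8 to 16.0 in RMC-7977 tumours. The 10 adipocyte markers summed to 27.6 to 56.9 CPM in every tumour except Trametinib replicate 4, which had 158. Much of that sum came from CFD, with a median of 27.7 CPM over all tumours. ADIPOQ, the adipocyte hormone adiponectin, was at 0 in the other 21 tumours.

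The 7 muscle markers summed to 39.8 to 84.0 CPM under Vehicle, 84.5 to 132 in RMC-4550 tumours, 67.9 to 106 in RMC-7977 tumours, 43.9 to 154 in trametinib tumours and 45.6 to 72.2 in cobimetinib tumours. Most of this was MB, myoglobin, which was 53.7 ± 15.9 CPM under Vehicle, 82.6 ± 16.3 under RMC-7977 and 100 ± 21.5 under RMC-4550. It was 63.8 ± 27.8 CPM under trametinib and 54.5 ± 11.8 under cobimetinib. MB had its higher means where CD36 was higher, by 0.62 ± 0.24 and 0.90 ± 0.24 on the log2 scale, without passing the test (adjusted p = 0.317 and 0.520). MB under RMC-4550 differed from cobimetinib by 0.88 ± 0.27 (adjusted p = 0.359). MYLPF, a myosin light chain and the other tested gene of the list, differed from Vehicle by 1.14 under RMC-7977 and by -0.25 under RMC-4550 on the log2 scale. Its level was low, with a median of 0.722 CPM and a lowest count of 3. The muscle genes MYH2 and MYH7 were at 0 in 21 and 18 tumours, TNNT3 in 12, CKM in 4 and ACTA1 in 2.

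None of the other 6 members with enough counts passed edgeR's quasi-likelihood test in any of the 10 comparisons. Against Vehicle the share of all 17652 tested genes that passed was 0.748% for RMC-7977 and 0.0283% for RMC-4550, and it was 0% for either MEK inhibitor. Between drugs it was 0.0906% for RMC-7977 against RMC-4550, 0.408% against trametinib and 0.278% against cobimetinib. It was 0.0283% for RMC-4550 against cobimetinib and 0% for the 2 remaining pairs. At an unadjusted p under 0.05, 1 of the 6 members differed from Vehicle for RMC-7977 and 1 for trametinib, and 0 did for RMC-4550 and for cobimetinib. Over all genes that share was 10.3%, 18.8%, 4.24% and 3.30%, in the same order. DESeq2 called 1 of the 6, ACSL1, in RMC-7977 against Vehicle, RMC-4550 and trametinib, where it called 3.39%, 1.68% and 4.18% of all genes it tested, and 0 in the 7 other comparisons.

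**Figure D2:**
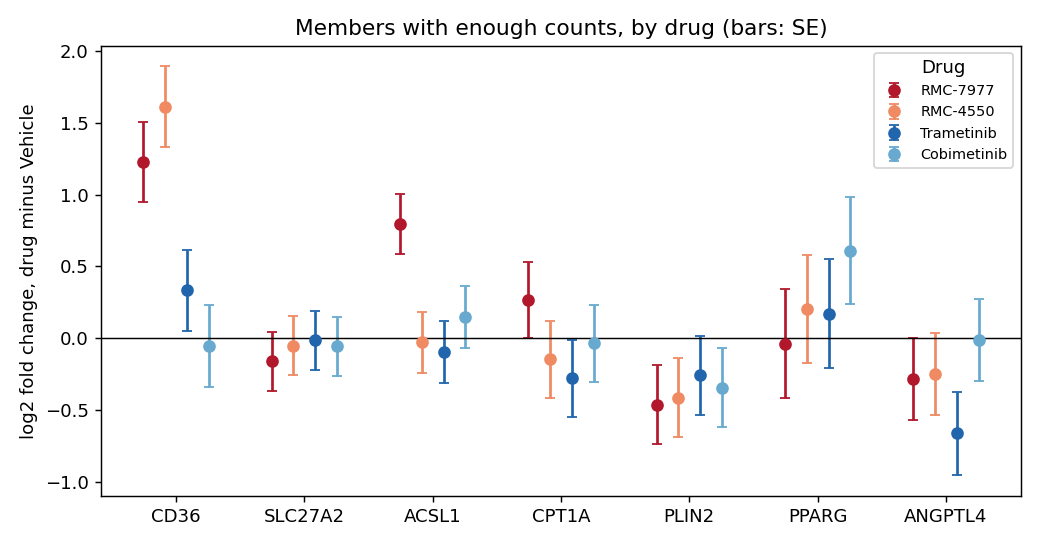
Log2 fold change from Vehicle of the 7 members with enough counts, with 1 colour per drug and bars for SE. CD36 stands at 1.23 and 1.61 for RMC-7977 and RMC-4550, ACSL1 at 0.80 for RMC-7977, and every other value lies between -0.66 and 0.61.

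SLC27A2 (ENSG00000140284, chromosome 15, 50182196 to 50236395, plus strand) encodes a fatty acid transport protein that also activates very long chains. Under Vehicle it ranged from 15.5 over a median of 25.1 to 31.3 CPM. RMC-7977 tumours had 16.7, 26.5, 23.0 and 21.3 CPM, and RMC-4550 tumours 20.8, 29.4, 27.1 and 17.01. The groups overlapped throughout, and the means differed by at most 1.12-fold between the highest and lowest group. The log2 difference from Vehicle was -0.16 ± 0.21 under RMC-7977, with a 95% interval of -0.57 to 0.24, and was nearer 0 under the other drugs. The second uptake gene thus showed none of the separation seen for CD36. ATP8B4 overlaps it on the opposite strand, with 808 counts against 6757.

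The fatty acid binding proteins FABP4 and FABP5 were almost unread, and neither had enough counts to be tested. FABP4, the binding protein of adipocytes and macrophages, had 46 counts in the series, of which 41 lay in Trametinib replicate 4, and 18 tumours had 0. Vehicle tumours had 0 FABP4 counts, a level of at most 0.0383 CPM by a floor of 3 counts over the TMM-scaled library totals of the group. RMC-7977 tumours had 0, at most 0.0608 CPM, and cobimetinib tumours 0, at most 0.0517 CPM. These floors cover counting error only. The FABP4 level of Trametinib replicate 4 was 6.56 CPM. That tumour had the highest sums not only of adipocyte markers (158 CPM) but also of endothelial (246 CPM), muscle (154 CPM) and platelet markers (28.3 CPM).

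FABP5, the epidermal type of binding protein, had 32 counts in all and 0 in 9 tumours. The 4 cobimetinib tumours had 4, 3, 6 and 4 counts (0.277, 0.232, 0.408 and 0.251 CPM), while Vehicle tumours had 1, 0, 0, 1, 5 and 0. RMC-7977 tumours had 1 count together, RMC-4550 tumours 5 and trametinib tumours 2. All of these are levels of a few reads. FABP5 has 13 processed copies in the table, 8 of them with 79 counts in total, so its own counts are uncertain.

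LPL, the lipase that frees fatty acids from lipoproteins at vessel walls, had 44 counts, 20 of them in Trametinib replicate 4, and 0 in 14 tumours. Vehicle tumours had 7, 3, 0, 0, 4 and 0 counts and RMC-7977 tumours 0, at most 0.0608 CPM. Trametinib tumours had 0, 2, 5 and 20 counts, RMC-4550 tumours 1 in all and cobimetinib tumours 2. LPL was therefore near or under 1 CPM in all tumours but 1, which had 3.20 CPM.

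ANGPTL4 (ENSG00000167772, chromosome 19, 8363289 to 8374373, plus strand), a secreted inhibitor of LPL and a PPAR target, was abundant by contrast. Under Vehicle it ranged from 74.9 over a median of 83.0 to 139 CPM. RMC-7977 tumours had 73.5, 102, 48.2 and 94.5 CPM, and RMC-4550 tumours 54.4, 118, 46.5 and 106. Trametinib tumours had 77.0, 70.0, 58.6 and 38.9 CPM, with 3 of the 4 below every Vehicle tumour, and cobimetinib tumours 87.9, 133, 66.97 and 97.5. The trametinib difference from Vehicle was -0.66 ± 0.29 on the log2 scale (adjusted p = 0.232), the lowest of the 4. The antisense gene RAB11B-AS1 overlaps ANGPTL4 with 1027 counts against 24398.

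ACSL1 (ENSG00000151726, chromosome 4, 184755595 to 184826818, minus strand), which activates long-chain fatty acids, was highest under RMC-7977. RefSeq gives it 5 windows, and the 1 that no exon overlaps, chr4:184815125-184815374 on the minus strand, is shown because ACSL1 came nearest to the threshold among the tested members. Its GC content is 61.2%, and it holds no AGGTCA on either strand.
ACSL1 upstream window: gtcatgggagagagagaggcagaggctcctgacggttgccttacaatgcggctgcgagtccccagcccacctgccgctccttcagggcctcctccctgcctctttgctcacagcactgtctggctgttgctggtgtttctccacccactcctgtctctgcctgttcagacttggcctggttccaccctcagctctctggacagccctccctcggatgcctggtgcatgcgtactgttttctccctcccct

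Vehicle tumours ranged in ACSL1 from 44.4 over a median of 63.9 to 95.0 CPM. RMC-7977 tumours had 95.1, 121, 114 and 148 CPM. The lowest RMC-7977 tumour lay just above the highest Vehicle tumour, at 95.0 CPM, and 2.23% of all genes separated in this direction.

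RMC-4550 tumours had 59.0, 77.9, 63.9 and 69.3 CPM of ACSL1, trametinib tumours 73.5, 75.0, 72.2 and 36.5, and cobimetinib tumours 73.8, 79.3, 73.4 and 79.0. All 12 lay within the range of Vehicle except Trametinib replicate 4, which lay below it. ACSL1 under RMC-7977 differed from Vehicle by 0.80 ± 0.21 on the log2 scale (1.74-fold, higher in 4 of 4 tumours), and edgeR's quasi-likelihood test missed the threshold (adjusted p = 0.0796). DESeq2 gave an adjusted p of 0.00715. Across the alternatives the adjusted p ran from 0.00429 to 0.9997, and it passed in 6 of 31, among them without Trametinib replicate 4 (adjusted p = 0.0147), Vehicle replicate 1 (0.0410) or Vehicle replicate 3 (0.0495).

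The RMC-7977 tumours also lay above all tumours of the other drugs in ACSL1. The log2 differences were 0.83 ± 0.24 from RMC-4550 (adjusted p = 0.235), 0.89 ± 0.24 from trametinib (adjusted p = 0.0847) and 0.65 ± 0.23 from cobimetinib (adjusted p = 0.381). Such separation held for 3.79%, 3.22% and 5.74% of all genes in the same direction. ACSL1 and CD36 parted under RMC-4550, where the log2 differences from Vehicle were -0.03 ± 0.21 for ACSL1 and 1.61 ± 0.28 for CD36.

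CPT1A (ENSG00000110090, chromosome 11, 68754620 to 68844410, minus strand), the carnitine transferase that admits long-chain fatty acids to mitochondria, overlapped between all groups. Vehicle tumours ranged from 179 over a median of 203 to 280 CPM. RMC-7977 tumours had 243, 269, 206 and 323 CPM, RMC-4550 tumours 140, 236, 229 and 177, and cobimetinib tumours 222, 216, 171 and 234. Trametinib tumours had 199, 235, 219 and 58.4 CPM, the last being replicate 4. The difference from Vehicle was 0.27 ± 0.27 on the log2 scale under RMC-7977 (adjusted p = 0.848) and between -0.28 and -0.04 under the other drugs. The trametinib difference of -0.28 was -0.03 without replicate 4, and the RMC-7977 difference ran from 0.13 to 0.36 without 1 tumour.

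PLIN2 (ENSG00000147872, chromosome 9, 19108375 to 19149290, minus strand), the coat protein of lipid droplets, had a lower mean under each drug than under Vehicle, without passing. Vehicle tumours ranged from 157 over a median of 236 to 430 CPM. RMC-7977 tumours had 173, 222, 202 and 173 CPM, RMC-4550 tumours 208, 236, 110 and 243, trametinib tumours 255, 258, 216 and 158, and cobimetinib tumours 198, 300, 155 and 183. Nearly all drug tumours lay inside the wide Vehicle range. The log2 differences ran from -0.46 ± 0.28 under RMC-7977 (adjusted p = 0.621) to -0.26 ± 0.27 under trametinib (adjusted p = 0.610), and they share the Vehicle tumours. Without Vehicle replicate 3 the PLIN2 difference was -0.07 for trametinib, -0.15 for cobimetinib, -0.22 for RMC-4550 and -0.27 for RMC-7977.

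PPARG (ENSG00000132170, chromosome 3, 12287368 to 12434356, plus strand) encodes the PPAR of adipocytes and macrophages. Of its 6 RefSeq windows the one before the first start site, chr3:12287118-12287367 on the plus strand, is shown because it holds the hexamer AGGTCA, the building block of PPAR elements, at 2 places set in capitals.
PPARG upstream window: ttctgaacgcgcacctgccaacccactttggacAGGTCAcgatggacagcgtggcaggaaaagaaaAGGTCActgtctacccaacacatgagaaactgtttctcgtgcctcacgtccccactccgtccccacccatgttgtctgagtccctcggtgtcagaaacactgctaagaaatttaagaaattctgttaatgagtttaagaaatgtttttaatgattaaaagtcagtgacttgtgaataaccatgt

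The full repeat AGGTCANAGGTCA, searched on both strands, lay in 0 of the 21 windows of the members and in 0.01709% of all 35116 RefSeq windows of 250 bases. The single hexamer AGGTCA, which is part of that repeat, lay in 3 of the 21, all of PPARG, and in 12.08% of all windows. PPARG windows 2 and 3, with 1 match each, cover nearly the same bases (12288810 to 12289059 and 12288820 to 12289069). Overlapping windows can count 1 site more than once. These matches describe letters in the windows only. FABP4, FABP5 and LPL had no entry.

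PPARG was the least abundant of the tested members. Vehicle tumours ranged from 4.00 over a median of 7.50 to 19.8 CPM. RMC-7977 tumours had 7.82, 10.2, 9.61 and 10.2 CPM, RMC-4550 tumours 15.1, 10.1, 13.6 and 5.98, trametinib tumours 18.2, 7.71, 6.02 and 11.8, and cobimetinib tumours 16.7, 11.5, 18.5 and 12.7. Each drug group overlapped Vehicle, and the highest mean, under cobimetinib, differed from it by 0.61 ± 0.37 on the log2 scale (adjusted p = 0.99999). Cobimetinib tumours all lay above RMC-7977 tumours, where CD36 was higher, with a log2 difference of -0.65 ± 0.41 for RMC-7977 minus cobimetinib (adjusted p = 0.856). Of all genes 4.73% separated in that way.

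**Figure D3:**
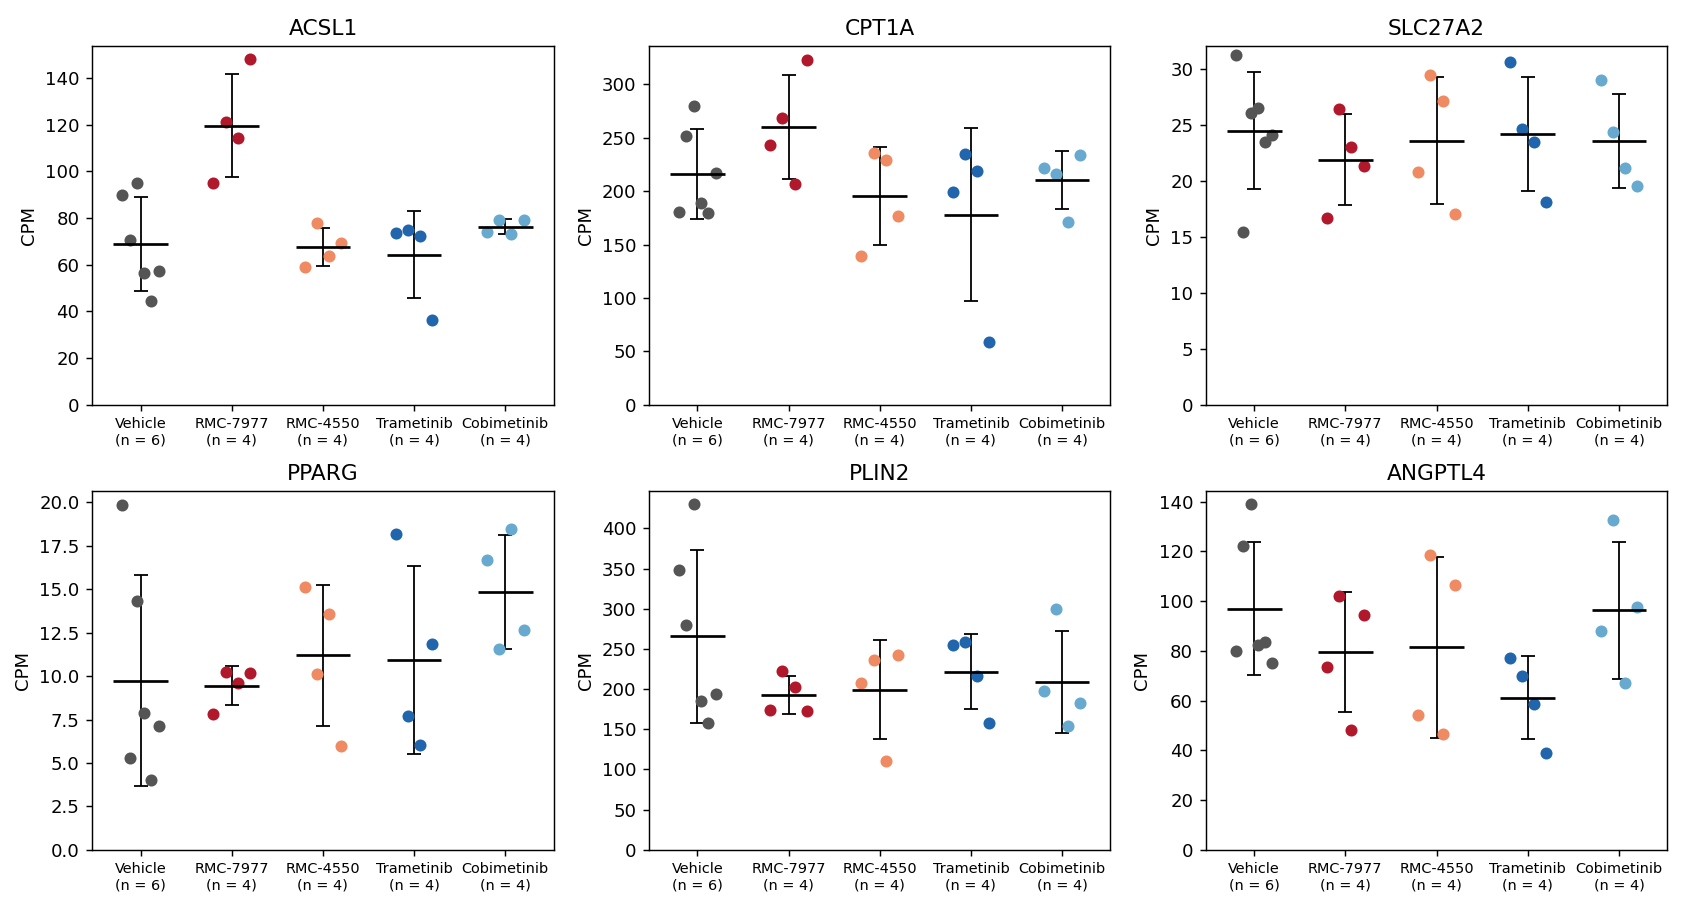
CPM of the 6 other tested members in each tumour by treatment group, with points for tumours, lines for means and bars for SD. In ACSL1 the 4 RMC-7977 tumours start at 95.1 CPM, above all others, while the groups overlap Vehicle in the 5 other panels.

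Per length, in TPM (counts scaled by gene length to a fixed total per library), the members fell into 3 tiers under Vehicle. PLIN2, ANGPTL4 and CPT1A had 164 ± 63.5, 122 ± 30.1 and 103 ± 17.7 TPM (SD, n = 6). ACSL1, SLC27A2 and CD36 had 34.5 ± 9.96, 27.5 ± 6.42 and 26.6 ± 10.8 TPM, and PPARG had 6.79 ± 4.36. Neighbours within a tier differed by less than the larger of their SDs. CD36 had 59.9 ± 6.00 TPM under RMC-7977 and 79.0 ± 38.4 under RMC-4550, near ACSL1 at 57.8 ± 9.04 in the first and above ACSL1 at 33.4 ± 4.40 in the second.

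**Figure D4:**
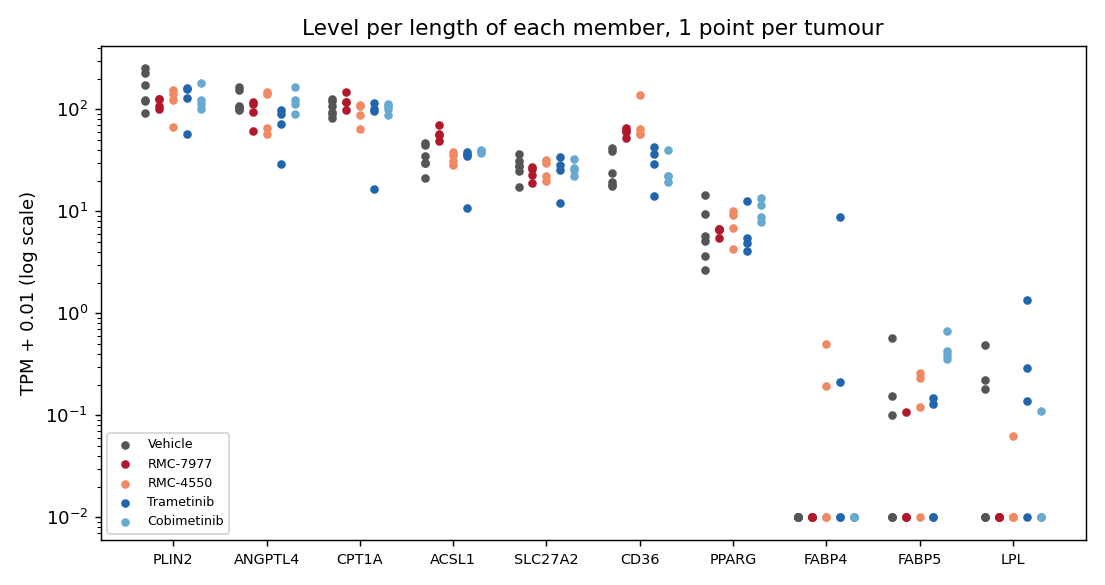
TPM plus 0.01 on a log axis for the 10 members, with 1 point per tumour coloured by group and points at the bottom for 0. FABP4, FABP5 and LPL lie below the other 7 members except FABP4 in Trametinib replicate 4, and CD36 stands at 59.9 and 79.0 TPM on average under RMC-7977 and RMC-4550.

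Beyond the members, 8 lists of fatty acid genes held 140 further genes that are reported here, of which 110 had enough counts. Against Vehicle 0 of these 110 passed edgeR's quasi-likelihood test under RMC-7977, RMC-4550, trametinib or cobimetinib. The share of all tested genes that passed was 0.748%, 0.0283%, 0% and 0%. At an unadjusted p under 0.05 there were 21, 6, 26 and 7 of the 110, against 10.3%, 4.24%, 18.8% and 3.30% of all genes. DESeq2 called 6, 0, 2 and 0 of the list genes, beside 3.39%, 0.165%, 1.91% and 0.00252% of all genes that it tested. The median log2 difference of the 110 was 0.10, -0.06, -0.10 and -0.01, beside a median of -0.01 over all genes in each of the 4.

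PPARA and PPARD, the other PPAR receptors, were chosen after their values were seen. PPARA was 34.8 ± 11.2 CPM under Vehicle and 60.1 ± 7.40 under RMC-7977, where all 4 tumours (50.3, 63.7, 58.9 and 67.5 CPM) lay above the highest Vehicle tumour at 49.4, a separation seen for 2.23% of all genes. Its log2 difference of 0.79 ± 0.22 missed the threshold (adjusted p = 0.101), and DESeq2 passed it (adjusted p = 0.0215). Under RMC-4550, trametinib and cobimetinib PPARA was 37.7 ± 6.51, 37.1 ± 8.90 and 42.7 ± 8.91 CPM. PPARD had log2 differences of 0.47 ± 0.40 under RMC-7977 and -0.77 ± 0.42 under trametinib, neither past the threshold. Each of the 4 libraries that stood apart had the lowest PPARD of its group. These were 11.2 CPM in Vehicle replicate 1, 19.0 in RMC-7977 replicate 3, 13.4 in RMC-4550 replicate 1 and 9.76 in Trametinib replicate 4. Without these 4 the trametinib difference passed the quasi-likelihood test (-0.74, adjusted p = 0.0451), beside 15.1% of all genes.

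**Figure D5:**
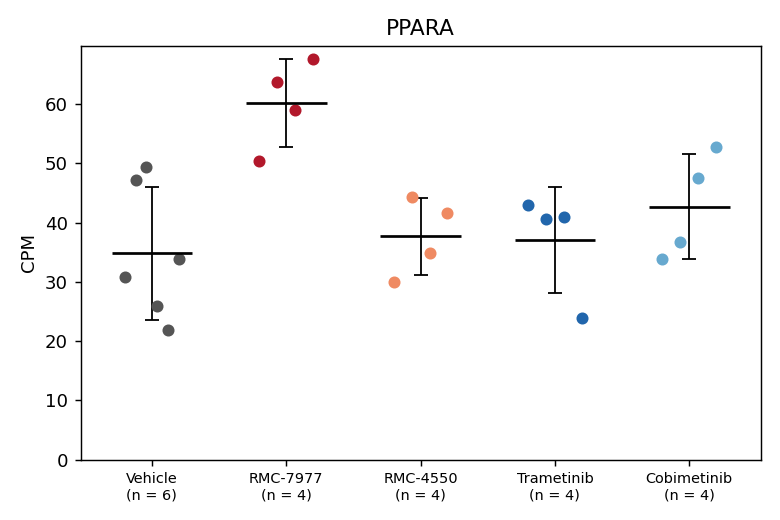
PPARA in CPM for each tumour by treatment group, with points for tumours, lines for means and bars for SD. The RMC-7977 tumours average 60.1 CPM and start at 50.3, above the highest Vehicle tumour at 49.4, while the Vehicle mean is 34.8.

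Of the 14 tested PPAR targets reported here none passed, and under RMC-7977 8 had positive and 6 negative differences (median 0.11). The nearest was EHHADH, an enzyme of peroxisomal oxidation, under trametinib (log2 difference 0.84 ± 0.27, adjusted p = 0.128), at 41.8 ± 30.0 CPM against 23.3 ± 5.29 under Vehicle. Trametinib replicate 4 had 86.7 CPM of EHHADH and the other 3 trametinib tumours 25.1 to 30.0, within the Vehicle range. Of 14 PPAR receptors and cofactors none passed, and the nearest was CEBPB, a transcription factor of adipocyte differentiation, at 123 ± 24.4 CPM under Vehicle and 70.4 ± 7.78 under RMC-7977 (log2 difference -0.80 ± 0.19, adjusted p = 0.0526). Of 24 oxidation genes none passed under RMC-7977, 14 had positive differences (median 0.07), and the nearest was ETFDH, which passes electrons from oxidation to ubiquinone. ETFDH was 33.8 ± 7.69 CPM under Vehicle and 55.2 ± 8.55 under RMC-7977 (log2 difference 0.71 ± 0.18, adjusted p = 0.0656).

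Of 16 genes of lipid droplets and triglyceride turnover none passed under RMC-7977, with 11 positive and a median of 0.36, and under cobimetinib 13 were positive with a median of 0.15. Under trametinib 8 were positive (median -0.08) and under RMC-4550 3 (median -0.18). BSCL2, the droplet protein seipin, had the smallest adjusted p of that list, under trametinib (-1.01 ± 0.36, adjusted p = 0.155). Among 11 acyl-CoA synthetases, thioesterases and related genes it was ACBD3, an acyl-CoA binding domain protein, under RMC-7977 (0.52 ± 0.16, adjusted p = 0.143). Among 15 genes of fatty acid synthesis, 13 had negative differences under trametinib (median -0.40) and 0 passed, with MID1IP1, a regulator of acetyl-CoA carboxylase, nearest (-0.60 ± 0.17, adjusted p = 0.103). In the uptake list the nearest was SLC27A5, a bile acid and fatty acid ligase, under trametinib (adjusted p = 0.108), where replicate 4 had 181 CPM and the other 3 tumours 10.6 to 20.3. In the lipoprotein lipase list it was FURIN, a protease that cleaves ANGPTL proteins and LPL, under trametinib (-1.16 ± 0.50, adjusted p = 0.225). Trametinib replicate 4 was the lowest trametinib tumour in FURIN (163 CPM), BSCL2 (0.800 CPM, 5 counts) and MID1IP1 (22.6 CPM). Without the 4 libraries that stood apart these 3 genes passed the quasi-likelihood test for trametinib (adjusted p = 0.0368, 0.0182 and 0.0174), beside 15.1% of all genes. Of 12 hypoxia genes, read beside ANGPTL4 and PLIN2 because hypoxia also induces those, 11 had negative differences under cobimetinib (median -0.42). Among these 12 genes 0 passed in any drug, with CA9 nearest under RMC-7977 (-3.14 ± 0.76, adjusted p = 0.0530). CA9 was low, at 2.82 ± 2.13 CPM under Vehicle and 0.319 ± 0.320 under RMC-7977. The RMC-7977 tumours had 8, 3, 0 and 4 counts of it.

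The count of pathway genes depended on the libraries used. Without Trametinib replicate 4, 6 of the pathway genes passed in RMC-7977 against Vehicle, 5 higher and 1 lower: PDK4, ACOT1, PPARA, ETFDH and ACBD3 were higher and CEBPB lower. Of all genes 3.01% passed at that setting. PDK4, a kinase that spares glucose by blocking pyruvate dehydrogenase, had an adjusted p of 0.0495 there, and ACOT1, an acyl-CoA thioesterase, 0.0130. Without all 4 libraries that stood apart, 13 passed for RMC-7977, 9 higher and 4 lower, beside 6.38% of all genes. For trametinib that choice gave 24, beside 15.1% of all genes, with 5 higher and 19 lower, among the latter FASN, the fatty acid synthase (log2 difference -1.77, adjusted p = 0.0316), and SREBF1, a regulator of lipid synthesis (-1.08, adjusted p = 0.0157). It gave 0 for RMC-4550 and 0 for cobimetinib, where 0.0619% and 0.045% of all genes passed.

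Likeness to CD36 was measured by Spearman correlation of log2 CPM over the 22 tumours among 11042 genes with a mean log2 CPM of at least 2. The tumours share their groups and libraries, so the values are descriptive. The 8 highest genes were CSNK1A1 (0.89), NAALADL2 (0.87), IKZF2 (0.87), PDLIM5 (0.86), B3GALNT2 (0.85), EFR3A (0.85), HGD (0.84) and PRSS23 (0.84). CSNK1A1, a casein kinase, averaged 104 ± 16.4 CPM under Vehicle, 144 ± 12.7 under RMC-7977 and 147 ± 20.1 under RMC-4550. IKZF2, the transcription factor Helios, averaged 25.2 ± 5.07, 44.3 ± 7.41 and 43.4 ± 14 CPM in the same groups. The 4 lowest were DNAH17 (-0.85), CDCA3 (-0.80), ELFN2 (-0.80) and GTSE1 (-0.79). CDCA3 and GTSE1 act in cell division, and CDCA3 averaged 34.0 ± 8.51 CPM under Vehicle, 21.5 ± 3.01 under RMC-7977 and 24.4 ± 4.72 under RMC-4550.

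None of the other members was near CD36 by this measure. ACSL1 had 0.25, PPARG 0.05, CPT1A -0.01, PLIN2 -0.07, SLC27A2 -0.10 and ANGPTL4 -0.31. With Pearson correlation, or without the 4 libraries that stood apart, 4 of the 8 most like genes were shared with the list above.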

How the data were processed

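Total RNA of 22 tumours was sequenced from strand-specific libraries, per the labels' protocols. The deposited values are raw read counts of 58735 genes, with symbols, positions and lengths at the coordinates of GENCODE 29. Per the submitters' processing notes, reads were handled with the genome hg38 and the tools edgeR (3.22.5), DESeq2 (1.20.0), featureCounts (1.5.0-p3), HISAT2 (2.0.5) and fastp. Whether counting used strand, and how multi-mapped reads were treated, is not given in the sources used here.

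The low-count filter of edgeR (4.0.16) with a minimum count of 10 left 17652 genes, 7 of the 10 members among them. Libraries were scaled by TMM in R (4.3.3), and all 22 tumours entered 1 robust quasi-likelihood model. The 10 pairs of groups were compared by 2-sided tests with Benjamini-Hochberg adjustment over all tested genes and a threshold of 0.05. TPM used the table's gene lengths, and 2 was the prior count for log2 CPM. The script was tested on simulated data. Alternatives were RLE or library-size scaling, DESeq2 (1.42.0), other filters, only the groups compared, a replicate block, a prior count of 0.5 and leaving out each tumour. Leaving out 2 or 4 libraries that stood apart was chosen after seeing the data. Promoter windows are the 250 bases before RefSeq start sites (GRCh38.p14), and 7 of the 10 members matched.

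The members and lists were chosen with earlier results of these data known. A gene of the lists is not reported here and enters no list count. Named were all members and, per list, genes past the threshold with the smallest adjusted p, up to 3, or else the 1 nearest to it. The rule also took the 8 genes most and the 4 least like CD36, DUSP6 and marker genes. Same-numbered tumours were checked for shared deviations from their group means: between RMC-4550 and Vehicle each of 3 pairs correlated above 0.1 (0.170 to 0.711), as did each between trametinib and Vehicle (0.136 to 0.202), and no other comparison had this in every pair. What the number stands for is not given in the labels.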

Additional observations from a re-analysis of the deposited data

Results flagged for a closer look

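In the groups of 4 or 6 tumours a value was singled out when its gap to the nearest other tumour filled most of the group's range. Chance does this in about 1 of 20 groups of normally distributed values, and 8 of 46 groups with any spread were singled out. That rate does not hold for groups with mostly 0 or 1 count, such as the 4 of them that rest on at most 5 reads. CD36 in RMC-4550 replicate 1 was 494 CPM against 214 in the nearest tumour. ACSL1 in Trametinib replicate 4 was 36.5 CPM against 72.2. That library also stood out in FABP4, at 6.56 CPM with 41 counts, and in LPL, at 3.20 CPM with 20 counts.

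The remaining 4 rest on a few reads. FABP5 in Vehicle replicate 6 was 0.393 CPM with 5 counts, and in RMC-7977 replicate 4 it was 0.0692 CPM with 1 count. LPL in RMC-4550 replicate 4 was 0.0703 CPM with 1 count, and in Cobimetinib replicate 1 it was 0.138 CPM with 2 counts.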

How the results depend on the processing

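Of the other 6 tested members 0 passed in any comparison, and alternatives moved this count only through ACSL1. It became 1 of the members in RMC-7977 against Vehicle with DESeq2, without 2 libraries with few low counts and without 4 that stood apart. It became 1 against RMC-4550 with DESeq2, 1 against trametinib with DESeq2 and without the 4 libraries, and 1 against cobimetinib without the 4. Leaving out 1 tumour gave 0 to 1 against Vehicle (1 without Vehicle replicate 1, Vehicle replicate 3 or Trametinib replicate 4) and 0 to 1 against trametinib (1 without Trametinib replicate 2 or 3). The cause was not tested. The 24 differences of the other members from Vehicle changed sign in 48 of 744 alternatives, none of them past the threshold.

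CD36 kept its direction against Vehicle in all alternatives for RMC-7977 and for RMC-4550, whose difference ran from 1.17 to 1.77 without 1 tumour. RMC-4550 minus trametinib was 0.83 to 1.41 without 1 tumour and 0.74 without the 4 libraries, and RMC-4550 minus cobimetinib 1.23 to 1.88. Without 1 tumour RMC-7977 minus RMC-4550 was -0.49 to 0.05, RMC-7977 minus trametinib 0.79 to 1.04, RMC-7977 minus cobimetinib 1.16 to 1.51 and trametinib minus cobimetinib 0.23 to 0.60. Also without 1 tumour RMC-7977 minus Vehicle was 1.14 to 1.38, trametinib minus Vehicle 0.18 to 0.49 and cobimetinib minus Vehicle -0.29 to 0.10. Over all alternatives CD36 under trametinib minus Vehicle reached 0.59, without the 4 libraries, and RMC-7977 minus trametinib fell to 0.77, without the 2.

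With the replicate block the CD36 difference was 1.32 for RMC-7977 and 1.60 for RMC-4550, and 0 members passed. DUSP6, LAPTM5 and PECAM1 did not pass for RMC-7977 in that fit (adjusted p of 0.135, 0.161 and 0.596). Vehicle replicates 5, 6 and 7 add nothing to a difference there, because no drug tumour has their number. Genes past the threshold in RMC-7977 against Vehicle numbered 132, but 2 with the block, 599 with DESeq2, 80 without the filter and 43 to 541 without 1 tumour. For RMC-4550 genes past the threshold numbered 5, but 0 with the block and 34 with DESeq2, and for trametinib 0, but 393 with DESeq2, 301 at a mean CPM of at least 1 and 2686 without the 4 libraries. Depth limits FABP4, FABP5 and LPL, whose differences at under 1 CPM were not detectable, and their mean log2 CPM moved with the prior count.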
